A study of Mus musculus with 8 samples.

Results

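The genes described here are 9 core components of the adherens junction: the cadherins Cdh1 and Cdh3, the catenins Ctnna1, Ctnnb1 and Ctnnd1, the nectin-binding protein Afdn, and the nectins Nectin1, Nectin2 and Nectin4. They were taken by a list of names from tables that count reads for 54838 genes, and all 9 passed the filter on low counts that left 17839 genes for testing. The study sequenced RNA from mouse skin epidermis, separated with trypsin, in 8 libraries. The groups were Ovol1/2 iDKO at 25 DPI, control at 25 DPI, Ovol1/2 iDKO at 52 DPI and control at 52 DPI, with 2 numbered biological replicates in each. The labels spell out neither iDKO nor DPI, and give no promoter, Cre line, control genotype, age or strain. The labels name Trizol-extracted RNA and a SMART-seq v4 ultra low input kit, and the libraries that share a time and a replicate number were compared as pairs.

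Adherens junctions hold neighbouring epithelial cells together. The extracellular parts of classical cadherins bind each other across the gap between cells, and their tails carry p120-catenin and beta-catenin, which recruits alpha-catenin and through it the actin cytoskeleton. Nectins form a parallel adhesion system that reaches actin through afadin, and in epidermis both systems join keratinocytes to each other. Zeb1, a transcription factor that represses Cdh1, and the zinc finger factors Ovol1 and Ovol2 are known to act in opposite directions on the epithelial state.

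Library totals ran between 9824307 and 28783756 counts in the libraries labelled iDKO and between 13024905 and 50711381 in the control libraries. Replicate number separated the libraries more than genotype did: on principal component 1, which held 56.5% of the variance, all 4 replicate 1 libraries lay on one side. In replicate 1, 49.76% to 49.97% of assigned reads fell on the second strand, against 95.4% to 95.7% in replicate 2. The numbers thus also mark a difference in library strandedness, although the labels name a single kit. Control replicate 1 at 25 DPI stood farthest out on that component and had the highest summed T cell, melanocyte and erythroid markers of the 8 libraries. Whole-gene counts of Ovol1 and Ovol2 were higher in the library labelled iDKO in all 4 pairs; Ovol1 was at 148 and 204 CPM (counts scaled to the library total and its TMM factor) in iDKO and 135 and 36.3 CPM in control at 25 DPI. The labels do not say which exons were altered, so these totals do not check the genotype, and every direction below rests on the labels. The 4 genes that passed the test between times, Xist, Eif2s3y, Uty and Ddx3y, are sex-linked, so sex differed along with time.

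None of the 9 genes passed an adjusted p under 0.05 between genotypes. In edgeR's quasi-likelihood test over all genes, with Benjamini-Hochberg adjustment, 0 of 9 were called at 25 DPI, at 52 DPI and across both times, where the background share was also 0% of genes in each, and 0 of 9 reached an unadjusted p under 0.05. The intervals below show how large a difference each fit allows, and those without a block also hold the gap between replicate numbers. For Cdh1 at 25 DPI the log2 interval was -1.31 to 1.96 without a block for each pair and -0.22 to 1.05 with it. With a block for each pair, 2 of 9 genes, Nectin1 and Nectin2, reached an unadjusted p under 0.05 in edgeR at 25 DPI, beside 1162 of 17839 genes, and 0 of 9 at 52 DPI, beside 764. In that fit 0 of 9 were called at either time or across both, where the background was 0% at each time and 0.00561% across both. DESeq2 with that block put 3 of 9 (Cdh3, Nectin1 and Nectin2) under an unadjusted p of 0.05 at 25 DPI, beside 1179 of 32427 genes. It called 0 of 9 as well, beside 0.308% of genes at 25 DPI, 0.111% at 52 DPI and 0.207% across both times. At 25 DPI 8 of 9 fold changes were above 0, with a median log2 fold change of 0.28 beside -0.03 over all tested genes. At 52 DPI 6 of 9 were above 0, with a median of 0.06 beside -0.01. In this fit without a block, the signs at 25 DPI changed when 1 library was left out. Without control replicate 1 at 25 DPI, 7 of 9 values were below 0, and without iDKO replicate 2 at 25 DPI, 8 of 9 were. Leaving out 1 library also left the groups with unequal replicate numbers. Within pairs, 5 of 9 genes were higher in iDKO in both 25 DPI pairs, beside 25.5% of all tested genes.

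**Figure D1:**
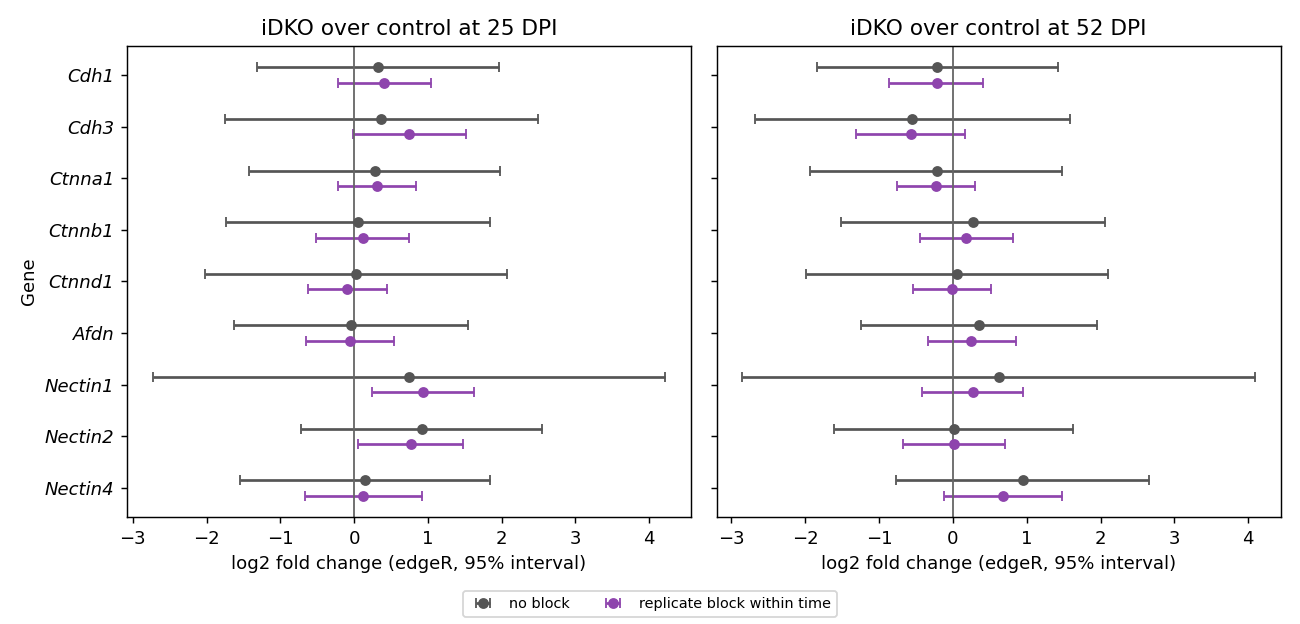
The log2 fold change of each gene, libraries labelled iDKO over control, at 25 DPI (left) and 52 DPI (right), from edgeR over all 8 libraries; points are estimates and bars are 95% intervals, grey without and purple with a block for each pair. Every grey interval spans 0, and the purple intervals of Nectin1 (0.24 to 1.62) and Nectin2 (0.06 to 1.48) at 25 DPI lie above it without passing adjustment.

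Levels were compared between genes as CPM per kilobase of exon not shared with another gene. Cdh1 had the highest median, 205 CPM per kb with a range of 75.8 to 247 over the 8 libraries, and ranked 1 in 8 of 8 libraries. Ctnnb1 followed at 108 (40.8 to 189) and ranked 2 in every library, then Ctnna1 at 73.1 (31.9 to 112). Afdn had a median of 38.4, Nectin1 32.8, Cdh3 32.3, Nectin4 22.4, Nectin2 19.1 and Ctnnd1 14.2 CPM per kb. The ranges of all neighbours in this order overlapped. Nectin1 had the widest range as a ratio of highest to lowest, 5.81 to 86.6 CPM per kb, and ranked anywhere between 3 and 9.

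**Figure D2:**
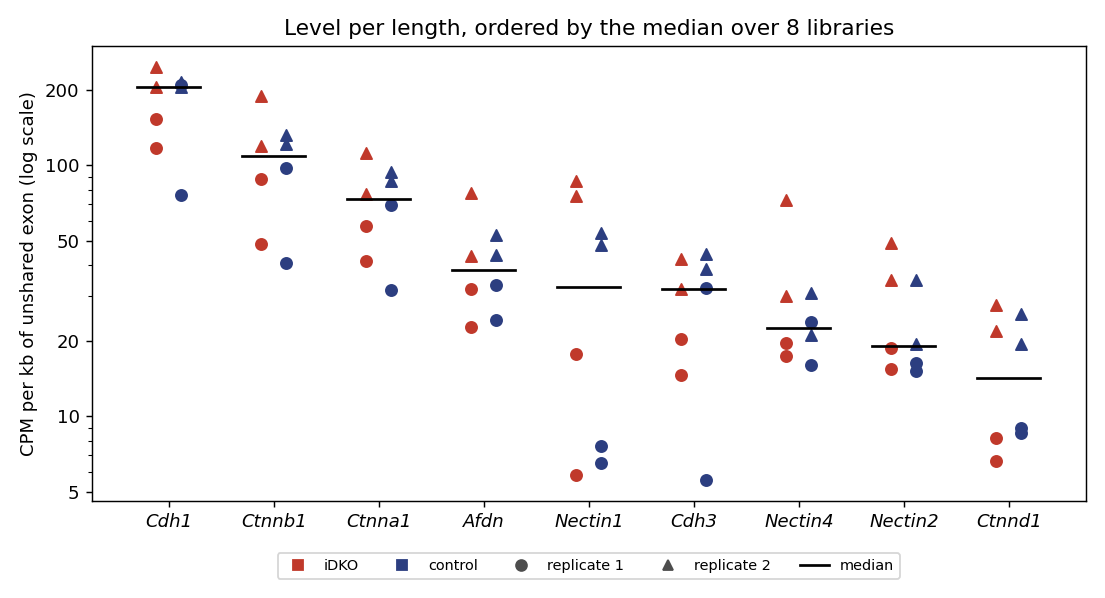
Level of each gene in CPM per kb of unshared exon (log axis), ordered by the median over 8 libraries (black line); red, labelled iDKO; blue, control; circles, replicate 1; triangles, replicate 2. Cdh1 is highest at a median of 205, Ctnnd1 lowest at 14.2, and replicate 2 lies above replicate 1 for most genes.

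Levels of Ctnnb1 and Ctnnd1 depend on how reads were counted. The Ctnnb1 exons share 759 bases, 14.6% of their length, with the antisense gene Ulk4, and reads that overlap both genes were left out of the unstranded count. For comparison, the second-strand column was taken for replicate 2 and the sum of both strand columns for replicate 1, whose libraries are unstranded. In replicate 1 that sum can also hold Ulk4 reads from the shared bases. The unstranded count was 65.6% and 73.9% of this value in iDKO replicates 1 and 2 at 25 DPI, and 51.2% and 73.5% in controls. Such counts are called strand-resolved here, though only replicate 2 is resolved, and were an alternative added after the data were seen. They put the Ctnnb1 log2 fold change at -0.04 at 25 DPI and 0.32 at 52 DPI. Ctnnd1 shares 4482 of its 7319 exon bases, 61.2%, with Gm28635, a gene on the same strand that had 0 counts in all 8 libraries. Its level was therefore counted on 2837 bases and understates the gene as a whole. Nectin2 shares 135 exon bases with antisense Gm20512, and its unstranded count was 93.9% to 97.1% of its strand-resolved count.

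Cdh1 and Cdh3 were higher in both libraries labelled iDKO than in their pair at 25 DPI and lower in both at 52 DPI. At 25 DPI the pair differences were smaller than the gap between replicates, and no difference was called at either time. At 52 DPI the nearest libraries of the groups were at 936 (iDKO) and 941 CPM (control) for Cdh1, and 141 and 142 CPM for Cdh3. How many of all genes have groups that do not overlap was not counted. Such a separation is therefore not read as a result, here or below. Both lie on chromosome 8 of GRCm38, plus strand: Cdh1 (ENSMUSG00000000303) at 106603351 to 106670246 and Cdh3 (ENSMUSG00000061048) at 106510891 to 106557297. Cdh1 encodes E-cadherin, the cadherin of all living epidermal layers. Its 25 DPI values were 535 and 1131 CPM in iDKO replicates 1 and 2, against 347 and 983 CPM in controls. The 52 DPI values were 701 and 936 CPM in iDKO, against 951 and 941 CPM in controls. The groups overlapped at 25 DPI, where replicate 2 exceeded replicate 1 in both genotypes. The Cdh1 log2 fold change was 0.32 (SE 0.70, 95% interval -1.31 to 1.96) at 25 DPI and -0.21 (SE 0.70, -1.84 to 1.42) at 52 DPI. With the pair block the Cdh1 values were 0.41 (SE 0.27) and -0.22 (SE 0.27), with edgeR adjusted p of 0.735 and 1. Without control replicate 1 the unblocked Cdh1 value at 25 DPI was -0.26.

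Cdh3 encodes P-cadherin, which is enriched in basal keratinocytes and hair follicles and whose loss in humans causes sparse hair with macular dystrophy. Its 25 DPI values were 63.9 and 186 CPM in iDKO replicates 1 and 2, against 24.4 and 169 CPM in controls. In the 52 DPI libraries it was at 88.6 and 141 CPM in iDKO, against 142 and 194 CPM in controls. The groups overlapped at 25 DPI, and at 52 DPI the highest iDKO library lay just under the lowest control. Control replicate 1 at 25 DPI was the lowest of all 8 libraries and gave the largest pair ratio among the 9 genes, a log2 ratio of 1.39. The Cdh3 log2 fold change was 0.37 (SE 0.91, 95% interval -1.75 to 2.49) at 25 DPI and -0.55 (SE 0.91, -2.68 to 1.58) at 52 DPI. Without control replicate 1 the unblocked Cdh3 value at 25 DPI was -0.45. With the pair block the Cdh3 values were 0.75 (SE 0.32, -0.01 to 1.52, edgeR adjusted p = 0.731) at 25 DPI and -0.57 (SE 0.31, -1.31 to 0.17) at 52 DPI. Per kilobase, Cdh3 was at 0.125 and 0.172 of Cdh1 in iDKO and 0.0735 and 0.179 in control at 25 DPI, and at 0.132 and 0.157 in iDKO and 0.156 and 0.216 in control at 52 DPI. Over the 4 pairs this ratio did not move one way (1 higher and 3 lower, mean log2 change 0 with an SD of 0.53, two-sided exact permutation p = 1).

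**Figure D3:**
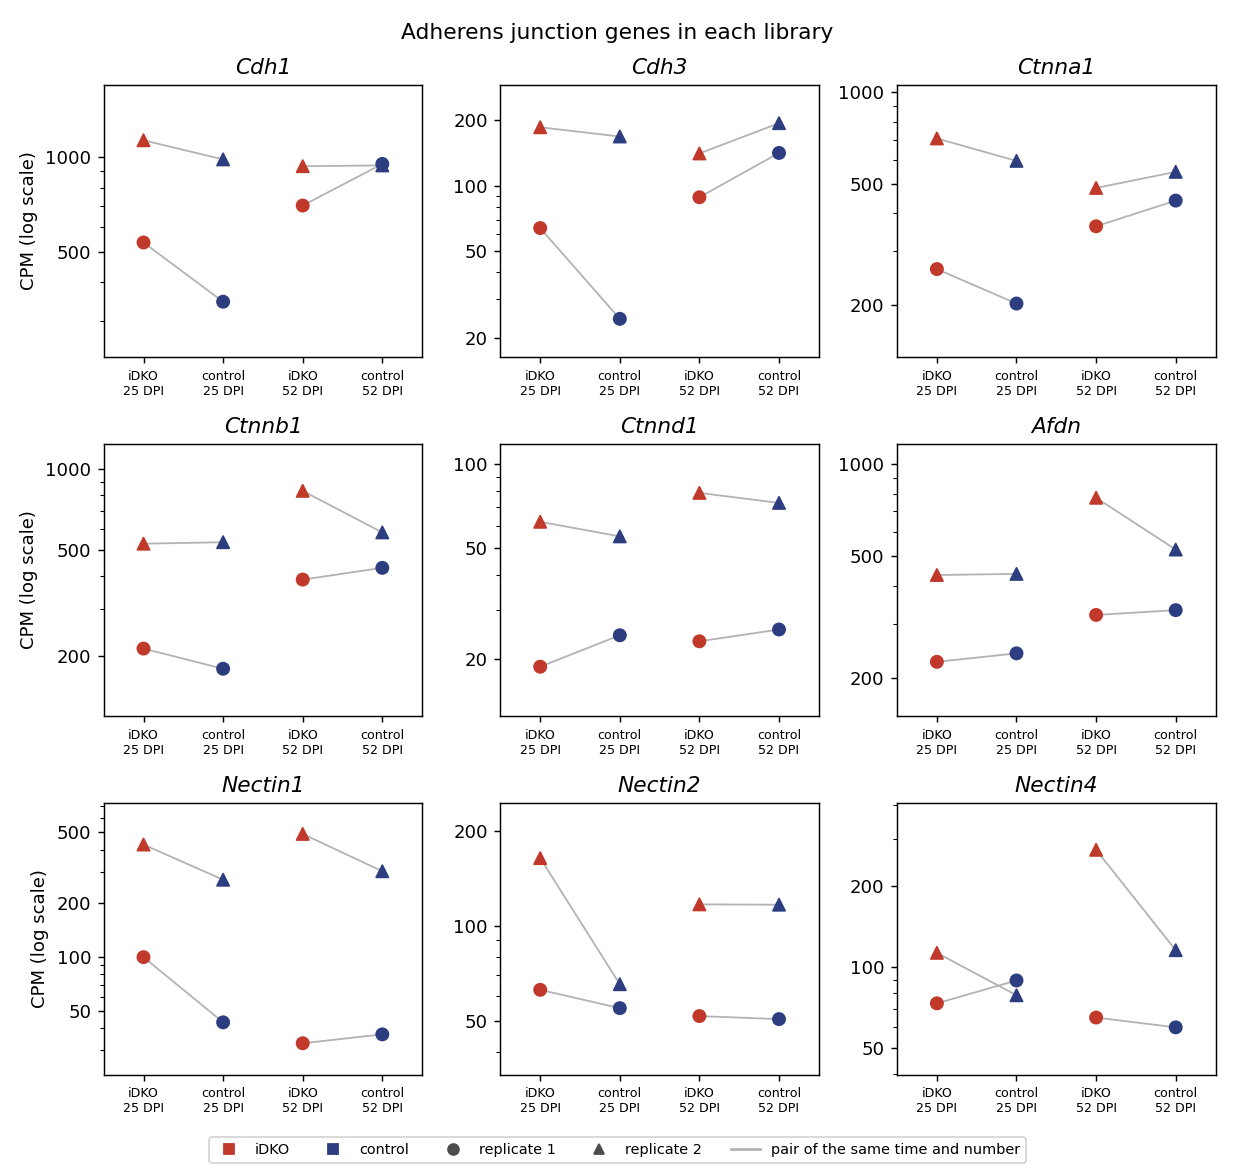
CPM of each gene in every library (log axes, scaled per gene); within each time the libraries labelled iDKO (red) stand left of control (blue), circles are replicate 1, triangles replicate 2, and grey lines join pairs. Cdh1, Cdh3 and Ctnna1 slope down from iDKO to control in both pairs at 25 DPI and up at 52 DPI, while the gap between replicates often exceeds that between genotypes.

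Of the catenins, Ctnna1 had the same signs as the cadherins and Ctnnb1 and Ctnnd1 had pair ratios of both signs. Ctnna1 (ENSMUSG00000037815, chromosome 18, 35118859 to 35254779, plus strand) encodes alpha-E-catenin, which ties the cadherin complex to actin. It was at 262 and 706 CPM in iDKO replicates 1 and 2 at 25 DPI, against 202 and 595 CPM in controls. By 52 DPI, levels were 363 and 485 CPM in iDKO, against 441 and 548 CPM in controls. The groups overlapped at both times. Its log2 fold change was 0.28 (SE 0.73, 95% interval -1.42 to 1.98) at 25 DPI and -0.22 (SE 0.73, -1.93 to 1.48) at 52 DPI. Without control replicate 1 the unblocked Ctnna1 value at 25 DPI was -0.32. With the pair block the Ctnna1 values were 0.31 (SE 0.22, -0.22 to 0.84) at 25 DPI and -0.23 (SE 0.22, -0.76 to 0.30) at 52 DPI. Per kilobase, the ratio of Ctnna1 to the summed cadherins was higher in 2 pairs and lower in 2 (mean log2 change -0.04, SD 0.22, exact permutation p = 0.75).

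Ctnnb1 (ENSMUSG00000006932, chromosome 9, 120929216 to 120960507, plus strand) encodes beta-catenin, both a cadherin partner and the transcriptional effector of Wnt signalling. It was at 214 and 528 CPM in iDKO replicates 1 and 2 at 25 DPI, against 180 and 534 CPM in controls. At the later time levels were 387 and 831 CPM in iDKO, against 429 and 581 CPM in controls. The groups overlapped at both times, and iDKO replicate 2 at 52 DPI was the highest library. Its log2 fold change was 0.05 (SE 0.77) at 25 DPI and 0.27 (SE 0.77) at 52 DPI, the second becoming -0.37 without that library. Ctnnd1 (ENSMUSG00000034101, chromosome 2, 84600071 to 84650765, minus strand) encodes p120-catenin, which keeps cadherins at the cell surface. It was at 18.8 and 62.1 CPM in iDKO and 24.4 and 55.1 CPM in control at 25 DPI, and at 23.2 and 78.8 CPM in iDKO and 25.6 and 72.6 CPM in control at 52 DPI. Replicate 2 was 2.26 to 3.40 times replicate 1 in the 4 groups, and the groups overlapped. With the pair block its log2 fold change was -0.09 (95% interval -0.63 to 0.45) at 25 DPI and -0.01 (-0.54 to 0.52) at 52 DPI.

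Across both times the nectins had the 3 largest log2 fold changes of the 9 genes, 0.68 for Nectin1, 0.55 for Nectin4 and 0.46 for Nectin2, though not at each time, and Nectin2 alone among the 9 was higher in all 4 pairs. That is 1 of 9, beside 6.73% of all tested genes, and 2 of its 4 pair ratios were near 0; 0 of 9 were lower in all 4 pairs, beside 6.7%. Nectin2 (ENSMUSG00000062300, chromosome 7, 19716644 to 19750483, minus strand) encodes an immunoglobulin-like adhesion molecule. It was at 62.8 and 164 CPM in iDKO replicates 1 and 2 at 25 DPI, against 54.9 and 65.4 CPM in controls. The 52 DPI values were 51.8 and 117 CPM in iDKO, against 50.7 and 117 CPM in controls. The pair ratios on the log2 scale were 0.19 and 1.33 at 25 DPI and 0.03 and 0.0044 at 52 DPI, so 1 pair carried most of the difference, and the groups overlapped at both times. The Nectin2 log2 fold change was 0.92 (SE 0.70, 95% interval -0.72 to 2.55) at 25 DPI and 0.01 (SE 0.70, -1.61 to 1.63) at 52 DPI. With the pair block the 25 DPI value was 0.77 (SE 0.30, edgeR unadjusted p = 0.0376, adjusted p = 0.731).

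The window of 250 bases before the RefSeq start of Nectin2 is shown because it alone, among the windows of 5 genes with an entry (Nectin2, Nectin4, Ctnnb1, Ctnnd1 and Afdn), holds CAGGTG, the E-box bound by Zeb1. The Nectin4 window is shown beside it as one with no match. Both are from GRCm38.p6, written from 5′ to 3′ on the strand of the gene, with CAGGTG in capitals. Nectin2 is chr7:19749574-19749823 on the minus strand, inside the GENCODE span given above but in none of its exons, because GENCODE also holds a transcript that starts farther upstream. Nectin4 is chr1:171369923-171370098 on the plus strand, ended before the annotated exon.
Nectin2: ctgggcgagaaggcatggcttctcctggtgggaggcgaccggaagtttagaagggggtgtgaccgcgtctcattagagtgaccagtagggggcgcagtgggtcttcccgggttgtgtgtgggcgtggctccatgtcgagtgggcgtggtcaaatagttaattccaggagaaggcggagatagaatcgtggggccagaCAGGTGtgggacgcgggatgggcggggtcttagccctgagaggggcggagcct
Nectin4: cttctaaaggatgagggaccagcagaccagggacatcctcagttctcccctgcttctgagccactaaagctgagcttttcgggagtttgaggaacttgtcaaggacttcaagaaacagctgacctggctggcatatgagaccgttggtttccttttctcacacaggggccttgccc
CAGGTG or its reverse complement CACCTG is found in 17.2% of 32851 RefSeq windows of that length, so a match in 1 of 5 genes is close to that share. CCGTTA, a core sequence recognised by Ovol proteins, or TAACGG is found in 2.18% of windows and in none of the 5 genes; no window of these genes holds both motifs, so matches of the 2 do not overlap.

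Nectin1 (ENSMUSG00000032012, chromosome 9, 43743984 to 43807461, plus strand) encodes a keratinocyte nectin whose loss in humans causes cleft lip and palate with ectodermal dysplasia. It was at 99.8 and 427 CPM in iDKO replicates 1 and 2 at 25 DPI, against 43.0 and 271 CPM in controls. In the 52 DPI libraries it was at 32.9 and 490 CPM in iDKO, against 36.9 and 303 CPM in controls. Replicate 2 was 4.28 to 14.9 times replicate 1, the widest gap of the 9 genes, and the groups overlapped. Without the block its log2 fold change at 25 DPI was 0.75 (SE 1.49, 95% interval -2.73 to 4.22). With the pair block it was 0.93 (SE 0.29, edgeR unadjusted p = 0.0154, adjusted p = 0.723) at 25 DPI and 0.27 (SE 0.29) at 52 DPI. DESeq2 with the pair block gave an adjusted p of 0.238 at 25 DPI, the smallest of any of the 9 genes in any setting.

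Nectin4 (ENSMUSG00000006411, chromosome 1, 171370099 to 171388598, plus strand) encodes a nectin whose loss in humans causes ectodermal dysplasia with fused digits. It was at 73.4 and 113 CPM in iDKO replicates 1 and 2 at 25 DPI, against 89.3 and 78.6 CPM in controls. By 52 DPI, levels were 65.0 and 273 CPM in iDKO, against 59.7 and 116 CPM in controls. The groups overlapped at both times, and iDKO replicate 2 at 52 DPI was the highest library. Its log2 fold change was 0.15 (SE 0.73) at 25 DPI and 0.95 (SE 0.74, 95% interval -0.77 to 2.66) at 52 DPI. Without that library the 52 DPI value was -0.42, but that fit sets iDKO replicate 1 alone against both control replicates. Within pairs Nectin4 was higher in iDKO in both replicates at 52 DPI, only slightly in replicate 1, and went both ways at 25 DPI. With the pair block the Nectin4 values were 0.12 (SE 0.33) at 25 DPI and 0.68 (SE 0.34, -0.12 to 1.48) at 52 DPI.

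Afdn (ENSMUSG00000068036, chromosome 17, 13760539 to 13906150, plus strand) encodes afadin, which links nectins to actin. It was at 227 and 435 CPM in iDKO replicates 1 and 2 at 25 DPI, against 241 and 438 CPM in controls. At the later time levels were 322 and 776 CPM in iDKO, against 334 and 526 CPM in controls. Apart from the second 52 DPI pair, the pair ratios were within 0.1 of 0 on the log2 scale. Its log2 fold change was -0.04 (SE 0.68, 95% interval -1.63 to 1.55) at 25 DPI and 0.35 (SE 0.68, -1.24 to 1.95) at 52 DPI, the second becoming -0.41 without iDKO replicate 2. With the pair block the Afdn values were -0.05 (SE 0.25, -0.65 to 0.54) at 25 DPI and 0.25 (SE 0.25, -0.34 to 0.85) at 52 DPI. Per kilobase, the ratio of Afdn to the 3 summed nectins was lower in the library labelled iDKO in 4 of 4 pairs (mean log2 change -0.34, SD 0.33). The two-sided exact permutation p was 0.125, the smallest that 4 pairs allow, and 0.5 after Benjamini-Hochberg adjustment over 4 ratios. The ratio of Nectin4 to Nectin1 went both ways (mean log2 change -0.20, SD 0.91, exact permutation p = 0.875).

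**Figure D4:**
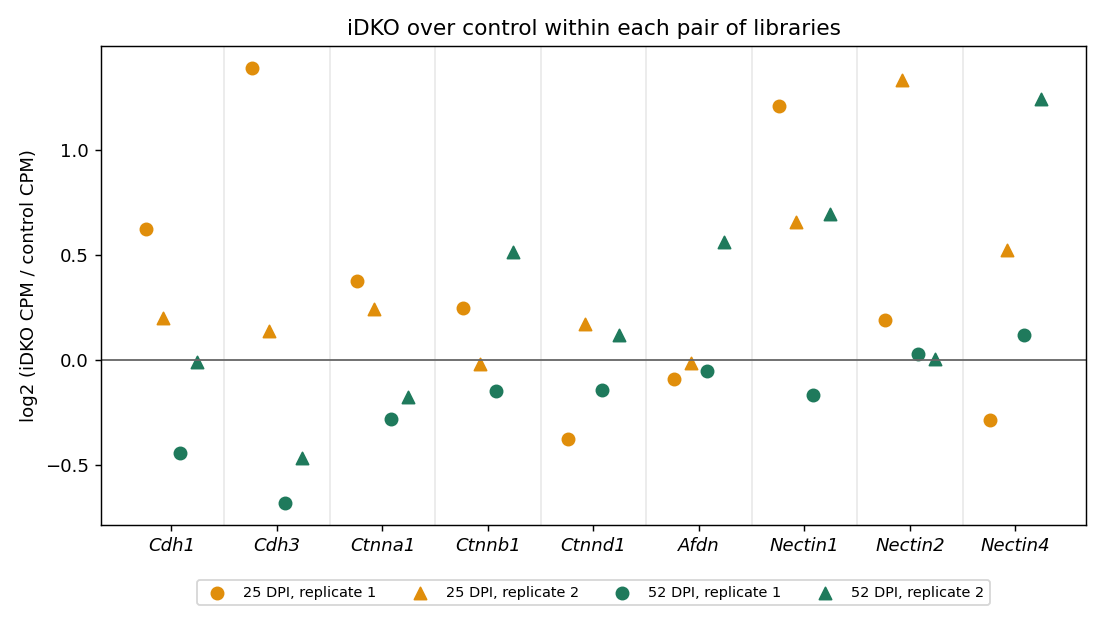
The log2 ratio of CPM, library labelled iDKO over control, in each of the 4 pairs; orange, 25 DPI; green, 52 DPI; circles, replicate 1; triangles, replicate 2. Cdh3 runs between 1.39 in the first 25 DPI pair and -0.68 in the first 52 DPI pair, and Nectin2 is above 0 in all 4.

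Cdh1, Cdh3 and Ctnna1 were higher in both pairs at 25 DPI and lower in both at 52 DPI, 3 of 9 genes beside 8.40% of all tested genes, and 0 of 9 had the opposite pattern, beside 8.06%. The second 52 DPI pair of Cdh1 was near 0, at a log2 ratio of -0.008. These genes moved together (Pearson r 0.92 to 0.97 with libraries centred on replicate number), so they are not 3 separate observations. Taken by time, 5 of 9 (with Nectin1 and Nectin2) were higher in both 25 DPI pairs, beside 25.5% of genes, and these 3 of 9 were lower in both 52 DPI pairs, beside 30.4%. The difference of the iDKO effect, 52 minus 25 DPI, was tested directly, and edgeR called 0 of 9 genes beside 0% of all genes, and DESeq2 with the pair block 0 of 9 beside 0.12%. Because sex differed along with time, this difference cannot be told apart from a difference between sexes. For Cdh3 it was -0.92 (SE 1.29, 95% interval -3.93 to 2.08) without the block and -1.32 (SE 0.45, -2.39 to -0.26; unadjusted p = 0.0223, adjusted p = 0.792) with it. For Cdh1 it was -0.64 (SE 0.38) and for Ctnna1 -0.54 (SE 0.32) with the block, each with an edgeR adjusted p of 0.802. Without iDKO replicate 2 at 25 DPI the unblocked values were 0.04 for Cdh3, 0.11 for Cdh1 and 0.39 for Ctnna1.

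Between times, over both genotypes, all 9 fold changes of 52 over 25 DPI were above 0, with a median of 0.32 beside -0.12 over all tested genes. edgeR called 0 of 9, beside 0.0224% of all genes. Ctnnb1 had the largest value, 0.61 (SE 0.50), and Afdn 0.54 (SE 0.44), each with an edgeR adjusted p of 0.862. With a block for replicate number, where 0 of 9 were called beside 0.028% of genes, Ctnnb1 was at 0.73 (SE 0.26, edgeR unadjusted p = 0.0237, adjusted p = 0.486), while Nectin1 and Nectin2 had values of -0.35 and -0.04. The genes called between times were sex-linked, and sex and time cannot be told apart in these values.

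Around the 9 genes, 0 members of any junction list were called in any genotype comparison by edgeR, with or without the pair block. DESeq2 with the pair block called Zeb1, Pvr and Cdh6. That fit called 0.308% of all genes at 25 DPI, 0.111% at 52 DPI and 0.207% across both times. Among proteins that link junctions to actin, 21 of 25 tested had a fold change above 0 at 25 DPI (median 0.22, beside -0.03 over all tested genes). At 52 DPI 12 of 25 did (median -0.03, beside -0.01). Vcl, which encodes vinculin, was at 38.2 and 209 CPM in iDKO and 13.1 and 122 CPM in control at 25 DPI, and at 76.6 and 103 CPM in iDKO and 129 and 118 CPM in control at 52 DPI. Its groups overlapped at 25 DPI and not at 52 DPI, a separation that was not counted over all genes. With the pair block the Vcl difference between times was -1.62 (SE 0.38, edgeR adjusted p = 0.792).

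Among other catenins and nectins 7 of 10 were tested, 5 of them above 0 at 25 DPI and 3 at 52 DPI. Pvr, a nectin-like receptor, was at 26.2 and 78.8 CPM in iDKO and 14.8 and 19.9 CPM in control at 25 DPI, and at 39.0 and 53.3 CPM in iDKO and 17.7 and 30.8 CPM in control at 52 DPI. It was higher in all 4 pairs, beside 6.73% of all tested genes. The groups did not overlap at either time, a separation that was not counted over all genes. The Pvr log2 fold change across both times was 1.26 (SE 0.42, edgeR adjusted p = 1), and 1.19 (SE 0.23, adjusted p = 0.669) with the pair block. DESeq2 with the pair block called Pvr at 25 DPI (1.41, SE 0.37, adjusted p = 0.0303) and across both times (1.18, SE 0.27, adjusted p = 0.0058). At 25 DPI edgeR with that block did not call Pvr (1.43, SE 0.31, adjusted p = 0.601). Jup, which encodes plakoglobin, a close relative of beta-catenin, was at 912 and 1643 CPM in iDKO and 378 and 1276 CPM in control at 25 DPI, and at 1532 and 1708 CPM in iDKO and 1622 and 1582 CPM in control at 52 DPI. Its groups overlapped at both times. Among other cadherins 7 of 15 were tested, and Cdh2, the cadherin of mesenchymal cells, was at or under 0.457 CPM in all 8 libraries. Cdh4 had the lowest value with the pair block at 52 DPI, -1.62 (SE 0.51, edgeR adjusted p = 1). Cdh6, which failed the filter for edgeR and was called by DESeq2 with the pair block at 52 DPI (5.48, SE 1.16, adjusted p = 0.00365), was at 0.22 and 25.3 CPM in iDKO and 0.0741 and 0.0783 CPM in control there, so that value rests on 1 library.

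Of regulators of cadherin turnover and signalling, 18 of 26 were above 0 at 25 DPI (median 0.08) and 12 of 26 at 52 DPI (median -0.01). Over all tested genes the medians were -0.03 and -0.01. All 7 genes of the complex that degrades beta-catenin were below 0 at 52 DPI, by a median of -0.12, and 3 of 7 were below 0 at 25 DPI. Pair by pair, Gsk3b and Amer1 were higher in iDKO in the second 52 DPI pair. Targets of beta-catenin were split at 25 DPI, 6 above and 5 below 0, and 8 of 11 were below 0 at 52 DPI (median -0.34). Factors that keep up epithelial genes were above 0 in 9 of 10 cases at 25 DPI (median 0.33) and 6 of 10 at 52 DPI (median 0.11). Of 6 tested repressors of Cdh1, 4 were above 0 at 25 DPI and 5 at 52 DPI. Zeb1 was at 14.4 and 35.3 CPM in iDKO and 3.33 and 3.04 CPM in control at 25 DPI, and at 17.0 and 20.5 CPM in iDKO and 2.07 and 2.04 CPM in control at 52 DPI. Its log2 fold change across both times was 3.08 (SE 0.38, edgeR adjusted p = 0.53), and it was called by DESeq2 (3.07, SE 0.43, adjusted p = 3.97e-08), also with the pair block (3.01, SE 0.31, adjusted p = 1.12e-17). The edgeR value of Cdh1 in the same libraries was 0.06 (SE 0.45).

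Marker genes of epidermal cells were high in every library: summed basal keratinocyte markers ran between 26470 and 49250 CPM in the libraries labelled iDKO and between 36110 and 52000 CPM in controls. Of 9 basal markers, 7 were above 0 at 25 DPI (median 0.08) and 9 were below 0 at 52 DPI (median -0.59). With the pair block 8 were above 0 at 25 DPI (median 0.51) and 9 below 0 at 52 DPI (median -0.63). By these fold changes most had the same signs as Cdh1, Cdh3 and Ctnna1. Pair by pair, only Krt5 and Itgb4 were higher in iDKO in both 25 DPI pairs and lower in both 52 DPI pairs. Krt15, Itga6, Itgb1, Col17a1, Trp63 and Dst were lower in iDKO in the second 25 DPI pair. Summed hair follicle markers were at 4495 and 3773 CPM in iDKO and 11370 and 2506 CPM in control at 25 DPI, and at 4813 and 11360 CPM in iDKO and 3696 and 2911 CPM in control at 52 DPI. The library with the highest Ctnnb1, Ctnnd1, Afdn, Nectin1 and Nectin4, iDKO replicate 2 at 52 DPI, had high hair follicle markers and the lowest basal markers. Control replicate 1 at 25 DPI had a hair follicle sum as high (11370 CPM), basal markers of 36110 CPM and the lowest Ctnnb1 (180 CPM). Krt17 and Krt79 made up most of both sums, at 5010 and 5780 CPM in that iDKO library and 5333 and 5759 CPM in that control. The hair content differed otherwise: Krt35, Krt71 and Krt25 were at 71.9, 81.2 and 59.3 CPM in the iDKO library and 3.07, 1.11 and 0.131 CPM in the control. Krt31 went the other way, at 0.457 and 2.29 CPM. Summed fibroblast markers were at 10.03 and 161 CPM in iDKO and 8.29 and 52.7 CPM in control at 25 DPI, and at 16.7 and 117 CPM in iDKO and 15.9 and 17.0 CPM in control at 52 DPI, with Lum at 0 in 3 libraries. Endothelial markers summed to at most 3.66 CPM. T cell markers summed to 272 and 129 CPM in iDKO and 868 and 178 CPM in control at 25 DPI, and to 382 and 699 CPM in iDKO and 306 and 138 CPM in control at 52 DPI. All 9 T cell markers were below 0 at 25 DPI and above 0 at 52 DPI. For the difference between times, 8 of 9 had an unadjusted p under 0.05 in edgeR with the pair block, beside 1116 of 17839 genes. That fit called 0 of them (smallest adjusted p = 0.792). DESeq2 with the pair block called Cd3d (adjusted p = 0.0433), beside 0.12% of all genes. All 7 Langerhans cell markers were above 0 at 52 DPI, and 2 of 7 were at 25 DPI, without the block. With the pair block 7 of 7 were above 0 at 52 DPI (median 1.1) and 5 of 7 at 25 DPI (median 0.39). In these bulk samples fewer cells of a type and less RNA per cell cannot be told apart, and the part of cell makeup in the values above was not tested.

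Across the 8 libraries, the genes whose log2 CPM was most like that of Cdh1, among 9504 protein coding genes with a mean of at least 10 CPM, were Llgl2 (Pearson r = 0.996), Vcl (0.991), Fam214b, Edem3 and Ammecr1l (0.990 each). For Cdh3 they were Golim4 (0.992), Ets2 and Zfp219 (0.991 each), Exoc4 (0.990) and Col4a5 (0.989). With each library centred on its replicate number, the 5 values for Cdh1 lay between 0.981 and 0.997 and those for Cdh3 between 0.978 and 0.995. The 8 points fall in 2 replicate numbers and differ in depth, and these values are a description.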

How the data were processed

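The authors deposited 1 table of raw read counts per library, with unstranded and per-strand columns; the unstranded counts were used. The build was GRCm38 (mm10), and STAR 2.5.2a, DESeq2 1.24.0, Trimmomatic 0.35 and FastQC 0.11.9 are named, per the submitters' processing notes; the annotation release is not given in the sources used here. Gene names and exons came from GENCODE (GRCm38), which matched 54723 of 54838 identifiers. Counts were tested with edgeR 4.0.16 in R 4.3.3 (filterByExpr on 4 groups, TMM, quasi-likelihood test, Benjamini-Hochberg adjustment over 17839 genes, called under 0.05), and with DESeq2 1.42.0 as an alternative. The script was tested on simulated data. The 4 groups of 2 libraries were fitted together. Same-numbered libraries deviated together (correlation 0.395 to 0.793 in all group pairs), so numbers were taken to pair libraries; the main fit has no block, and fits with one stand beside it. p-values measure only the spread between these libraries. Members and gene lists were chosen with earlier results of these data known. Named genes were the 9 members, Zeb1, the targeted genes, up to 3 genes of smallest p per list and comparison, and the 5 most like Cdh1 and Cdh3. Alternatives changed normalization, filter, strand, tool, block and libraries. Promoter windows came from RefSeq (GRCm38.p6).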

Additional observations from a re-analysis of the deposited data

How the results depend on the processing

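0 of the 9 genes were called in any comparison under any alternative, and the smallest adjusted p was 0.238. Of 332 values of these genes under alternatives that kept all libraries, 312 kept their sign and 20 did not; of 256 values with 1 library left out, 47 did not. Each group has 2 replicates, and the standard error of Cdh1 at 25 DPI was 0.27 with the replicate block within time, against 0.70 without a block.

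The count of called genes among all genes, 0 in each genotype comparison, depended on filter and tool. With no filter on low counts it was 8 at 25 DPI, 25 at 52 DPI, 16 across both times, 19 for the difference between times and 184 for 52 over 25 DPI. DESeq2 called 1 gene (Fkbp14) at 25 DPI, 5 (Dlx1, Gm49425, Lrat, Padi3 and Zeb1) at 52 DPI, 9 across both times and 58 for 52 over 25 DPI. DESeq2 with the replicate block called 6, 9, 25 and 240 in the same order, and with the replicate block within time 100 at 25 DPI, 36 at 52 DPI, 67 across both times and 39 for the difference. Across both times, the count in edgeR was 1 with the replicate block within time, and likewise 1 with strand-resolved counts and that block. For 52 over 25 DPI, where 4 genes were called, second-strand counts for replicate 2 gave 1 (Eif2s3y), strand-resolved counts gave 0, and leaving out 1 library gave 0 to 2; the 2, Eif2s3y and Xist, were called without iDKO replicate 1 at 52 DPI.

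Ctnnb1 at 25 DPI became -0.04 with strand-resolved counts and -0.06 with these and the replicate block within time. Ctnnd1 at 25 DPI became -0.11 with the replicate block, -0.09 with the block within time, -0.09 with strand-resolved counts and that block, -0.11 and -0.10 in DESeq2 with either block, and -0.0009 with only the groups compared. Ctnnd1 at 52 DPI became -0.01 with either block in edgeR and -0.02 in DESeq2; across both times it became -0.06 and -0.05 with the blocks in edgeR, -0.06 in DESeq2 and -0.04 with strand-resolved counts and the block within time. Cdh3 across both times became 0.07 with the block within time in edgeR and in DESeq2, and 0.09 with strand-resolved counts together with that block. The cause was not tested. The replicate block changed no call of the 9 genes.

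With 1 library left out, the log2 fold change at 25 DPI ranged between -0.30 and 1.30 for Cdh1, -0.57 and 2.39 for Cdh3, -0.59 and 1.30 for Ctnna1, -0.72 and 1.08 for Ctnnb1, -1.07 and 0.77 for Ctnnd1, -0.57 and 0.49 for Afdn, -0.63 and 2.65 for Nectin1, and -0.19 and 0.49 for Nectin4. Nectin2 stayed between 0.07 and 1.5. At 52 DPI the range was -0.37 to 0.72 for Ctnnb1, -1.07 to 1.01 for Ctnnd1, -0.41 to 0.85 for Afdn, -2.36 to 2.84 for Nectin1, -0.68 to 0.75 for Nectin2 and -0.42 to 1.64 for Nectin4. Cdh1 (-0.42 to -0.02), Cdh3 (-0.91 to -0.26) and Ctnna1 (-0.44 to -0.03) stayed below 0. Across both times the range was -0.23 to 0.35 for Cdh1, -0.55 to 0.43 for Cdh3, -0.35 to 0.34 for Ctnna1, -0.11 to 0.58 for Ctnnb1, -0.39 to 0.41 for Ctnnd1, -0.18 to 0.41 for Afdn, -0.28 to 1.49 for Nectin1 and -0.07 to 0.78 for Nectin4. For the difference between times it was -1.51 to 0.11 for Cdh1, -2.94 to 0.04 for Cdh3 and -1.52 to 0.39 for Ctnna1. A group with 1 library left was assumed to vary like the others. These fits had no block, so the groups compared no longer held the same replicate numbers.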
